A study of Mus musculus with 13 samples.

Results

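The genes described here are 10 members of the lipid droplet machinery of the mouse liver, chosen by symbol: Plin2, Plin4, Plin5, Cidea, Cideb, Cidec, G0s2, Pnpla2, Fitm1 and Cd36. They are 10 of the 22048 genes in a table of RNA-seq read counts from whole liver, and all 10 were found in it. Of these, 9 passed the filter on low counts and were tested. Cidea did not pass and is given by its counts alone.

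The 13 libraries came from mouse livers of 3 kinds. The 6 control livers still had their hepatic stellate cells; controls 1, 2 and 6 were male and 3, 4 and 5 female. In 4 livers these cells had been depleted, and of these only replicate 3 was male. The last 3 were taken 72 h after partial hepatectomy from mice that were not depleted, and of these only replicate 3 was female. Strain, genotype, age and method of depletion are not given by the labels, and none of the 13 libraries is labelled as sham-operated. The labels also do not state that each library is a separate animal, so p-values measure the spread between these samples.

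Lipid droplets are the cell's stores of neutral fat, a core of triglyceride and sterol ester under a single layer of phospholipid that carries its own proteins. Perilipins coat the droplet and govern the access of lipases, proteins of the CIDE family let droplets fuse and grow, and adipose triglyceride lipase opens the breakdown of the stored triglyceride. Hepatocytes store fat in this way between meals, and droplets fill transiently while the liver regrows after partial hepatectomy. Hepatic stellate cells, the pericytes of the liver sinusoid, keep the body's vitamin A as retinyl esters in droplets of their own.

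Plin4 and Plin5 are neighbours on chromosome 17 of the mouse genome (GRCm38), on the same strand. Plin4 (ENSMUSG00000002831.11) spans 56100591 to 56109803 and Plin5 (ENSMUSG00000011305.9) spans 56111601 to 56117596, which puts the start of Plin4 1798 bases beyond the end of Plin5. Plin2 (ENSMUSG00000028494.10) lies on chromosome 4 from 86648386 to 86670060. Of the other members, Cidec lies on chromosome 6 (113424634 to 113435760), G0s2 on chromosome 1 (193272161 to 193273217), Pnpla2 on chromosome 7 (141455198 to 141460743), Fitm1 on chromosome 14 (55575617 to 55576954) and Cd36 on chromosome 5 (17781690 to 17888801). The sequences just before these 3 genes are shown because Plin4 and Plin5 rose together after hepatectomy, whereas Plin2, the main perilipin of liver, did not pass the test there. They come from RefSeq (GRCm38.p6), are written 5′ to 3′ on the minus strand that the genes use, and end at the last base before the annotated gene. They cover chr4:86670061-86670309 for Plin2, chr17:56109804-56110032 for Plin4 and chr17:56117597-56117798 for Plin5. Capitals mark the half-site that nuclear receptors such as the PPARs bind, AGGTCA, or its reverse complement.

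Plin2: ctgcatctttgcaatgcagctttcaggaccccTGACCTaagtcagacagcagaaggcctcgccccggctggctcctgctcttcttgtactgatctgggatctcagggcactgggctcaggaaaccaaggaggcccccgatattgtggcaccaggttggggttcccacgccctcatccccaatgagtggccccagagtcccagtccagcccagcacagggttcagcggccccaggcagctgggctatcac
Plin4: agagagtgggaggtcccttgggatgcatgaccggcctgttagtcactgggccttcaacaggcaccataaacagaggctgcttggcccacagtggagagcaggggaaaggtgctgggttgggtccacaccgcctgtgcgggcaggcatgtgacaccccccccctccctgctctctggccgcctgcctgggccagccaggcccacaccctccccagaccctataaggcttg
Plin5: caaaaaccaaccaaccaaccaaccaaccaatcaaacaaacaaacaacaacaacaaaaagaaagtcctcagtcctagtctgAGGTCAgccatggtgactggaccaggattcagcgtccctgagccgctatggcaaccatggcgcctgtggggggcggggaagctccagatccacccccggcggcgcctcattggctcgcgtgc

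The Plin2 sequence holds 1 half-site, at position -218 from the RefSeq start, and the Plin5 sequence holds 1, at position -170. The Plin4 sequence holds none. The search covered both strands of the 250 bases before each RefSeq start, where AGGTCA occurs in 14% of the 32851 mouse promoters in the table. Promoters of 9 members were in it, and those of Cd36, Plin2 and Plin5 hold the half-site. The longer element AGGNCANAGGNCA, a pair of half-sites 1 base apart that holds most forms of the PPAR site and can contain AGGTCA, occurs in 0.338% of promoters and in 0 of the 9. The glucocorticoid receptor core ACANNNTGT occurs in 5.84% of promoters and in 0 of the 9. A match describes letters in this window and not a bound site.

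Total counts ran from 35360991 to 51008737 per library, and 13831 genes were tested. The depletion label was checked with 10 stellate markers, whose summed level was 270 to 682 CPM (read counts scaled to library depth, with TMM factors) in controls, 336 to 597 CPM after hepatectomy and 20.2 to 115 CPM in depleted livers. Replicate 4 was the highest depleted liver, while the other 3 did not exceed 40.2 CPM. Summed markers of Kupffer cells were 64.4 to 534 CPM in controls, 763 to 1710 CPM in depleted livers and 69.9 to 753 CPM after hepatectomy. Those of monocytes and neutrophils were 16 to 121, 604 to 1050 and 53.2 to 196 CPM in the same order. After hepatectomy 3 of the 7, S100a8, S100a9 and Chil3, were called higher (22.8-fold, 22.7-fold and 9.74-fold; edgeR adjusted p = 0.000109, 0.000206 and 0.00567). Control replicate 6 and hepatectomised replicate 2 stood apart, with the lowest Kupffer sums (64.4 and 69.9 CPM) and the lowest endothelial sums (74.4 and 76.3 CPM, against 187 to 401 CPM elsewhere). Plin2, G0s2 and Fitm1 were highest in these same 2 libraries, and calls that were lost without this pair are given both ways. White adipocyte markers were next to absent, with 7 genes summing to at most 0.405 CPM in any library, Lep at 0 in all 13 and Plin1 with at most 1 count. Hepatocyte markers summed to 61900 to 130000 CPM in controls, 66200 to 158000 CPM in depleted livers and 107000 to 164000 CPM after hepatectomy. In a whole liver, fewer cells of a type and less RNA per cell cannot be told apart.

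Cideb and Plin2 were the most abundant members in control liver. Compared per length, as RPKM (CPM divided by the exon length), the mean level was 146 for Cideb, 77.3 for Plin2, 35.1 for G0s2 and 27.7 for Pnpla2. Below these came Cd36 at 9.05, Plin5 at 8.59 and Fitm1 at 7.56 RPKM. Cidec at 0.436, Plin4 at 0.221 and Cidea at 0.0194 RPKM were the lowest. Of neighbours in this order, only Pnpla2 against Cd36 and Fitm1 against Cidec had ranges over the 6 controls that did not overlap. Cideb ranked 1, Plin2 2, Fitm1 7 and Cidea 10 in all 3 groups, whereas Plin5 ranked 6 in controls and 5 after hepatectomy, and Plin4 ranked 9 and 8.

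**Figure D1:**
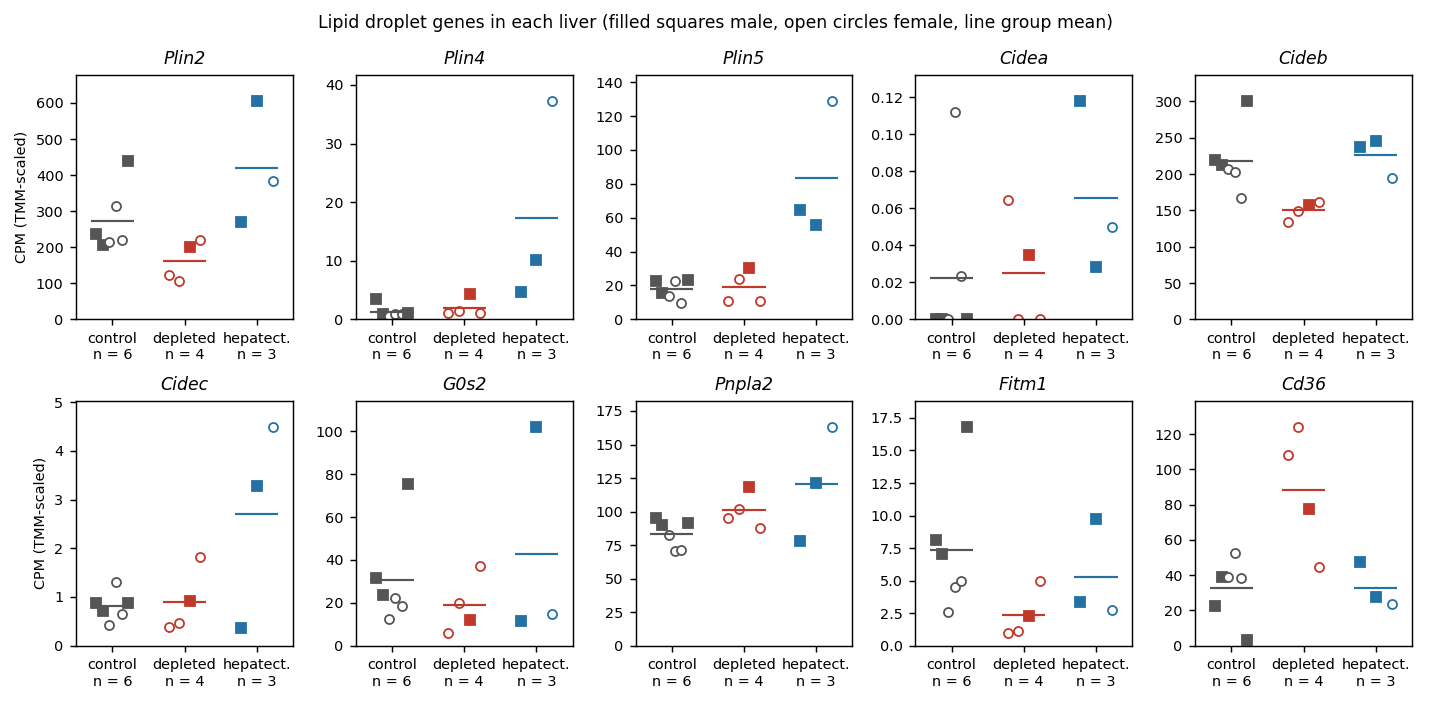
Level of each member in every liver, in CPM on a linear axis from 0, with filled squares for male and open circles for female livers and a line at the group mean. The 3 hepatectomised livers lie above all 6 controls for Plin4 and Plin5, and the 4 depleted livers lie below all 6 controls for Cideb.

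The members moved differently in the 3 comparisons. After hepatectomy Plin4 and Plin5 were higher than in controls, 15.8-fold and 4.7-fold in the fit. In depleted livers Cideb was lower than in controls, 1.37-fold, and Cd36 had a fitted level 2.62-fold higher that did not pass the test. Between the depleted and the hepatectomised livers, Plin2, Plin4 and Plin5 were all lower in the depleted. Counts were tested with edgeR's quasi-likelihood test, with sex as a covariate and Benjamini-Hochberg adjustment over all 13831 genes. In depleted livers it called 1 of 9 members, which was lower, against 33.9% of all genes tested and 15% lower. After hepatectomy it called 2 of 9, both higher, against 8.42% of all genes and 6.06% higher. Between the depleted and the hepatectomised livers it called 3 of 9, all lower, against 23.4% of all genes and 10.1% lower. The median log2 fold change of the 9 members was 0.08 in depleted livers, 0.53 after hepatectomy and -0.57 between the depleted and the hepatectomised livers, beside -0.03, -0.02 and -0.05 for all genes. Both comparisons with control share the same 6 controls.

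**Figure D2:**
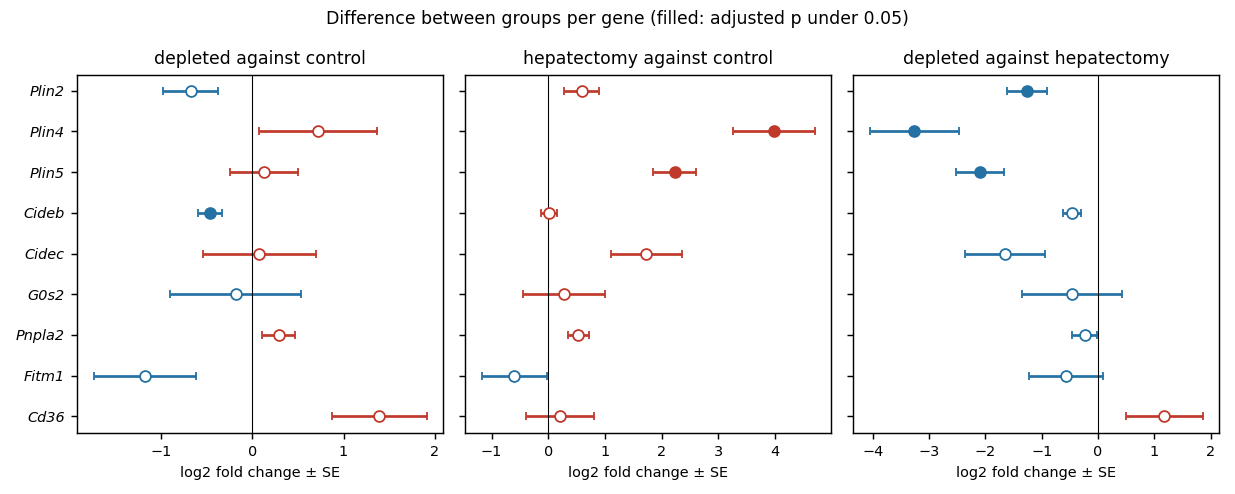
Log2 fold change of each tested member in the 3 comparisons, with bars for 1 standard error and filled points for an adjusted p under 0.05; the horizontal scales differ between panels. Filled points are Cideb in depleted against control livers, Plin4 and Plin5 after hepatectomy, and Plin2, Plin4 and Plin5 in depleted against hepatectomised livers.

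After hepatectomy Plin4 and Plin5 had the largest log2 fold changes of the 9 tested members. Plin5, the perilipin of oxidative tissues that tethers droplets to mitochondria and binds adipose triglyceride lipase, measured 9.69 to 23.4 CPM in the 6 controls with a median of 19. It measured 64.8, 55.6 and 129 CPM in hepatectomised replicates 1, 2 and 3. Every hepatectomised liver was above every control, as was so for 7.41% of all genes, and replicate 3, the female, was the highest. This is a log2 fold change of 2.23 ± 0.38 (SE; adjusted p = 0.00553 by edgeR). In depleted replicates 1 to 4 Plin5 measured 10.9, 24.1, 30.3 and 11.1 CPM, within and around the control range, and its log2 fold change was 0.13 ± 0.37 (SE; edgeR adjusted p = 0.822).

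Plin4, a perilipin of long amphipathic repeats best known from white fat and muscle, was barely detected in control liver, at 0.543 to 3.4 CPM with a median of 0.895, or 23 to 127 reads. It measured 4.61, 10.2 and 37.3 CPM in hepatectomised replicates 1, 2 and 3, or 157, 365 and 1496 reads. Here too no control reached the lowest hepatectomised liver, but the 3 values spread widely and replicate 3 carried most of the mean. The fitted log2 fold change reached 3.98 ± 0.72 (SE; adjusted p = 0.00717 by edgeR). Depleted replicates 1 to 4 measured 1.05, 1.46, 4.26 and 1.09 CPM, and the log2 fold change of 0.72 ± 0.65 (SE) did not pass the test (edgeR adjusted p = 0.434). It became -0.12 without depleted replicate 3, the only male of that group. White adipocyte markers summed to 0.0281 to 0.0998 CPM in the hepatectomised livers, below the 0.165 to 0.405 CPM of the controls. The marker sums of bile duct cells and lipid-associated macrophages were higher in the hepatectomised livers. Those of bile duct cells were 12.3, 15 and 18 CPM in replicates 1, 2 and 3, against 4.54 to 6.34 CPM in controls. Those of lipid-associated macrophages were 201 to 275 CPM against 104 to 179 CPM. Of that list Cd9 and Fabp5 were called higher, while Spp1, Lpl, Trem2 and Gpnmb were not. Trem2 and Gpnmb were low, at 0.196 to 1.27 and 0.505 to 2.24 CPM in the hepatectomised livers. Skeletal muscle markers summed to 7.55, 0.702 and 0.399 CPM in replicates 1, 2 and 3, against 0.593 to 0.913 CPM in controls. The part of these cells in the Plin4 and Plin5 levels was not tested.

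The size of both rises rested in part on hepatectomised replicate 3. Without it the log2 fold changes fell to 1.95 for Plin4 (edgeR adjusted p = 0.0426) and 1.47 for Plin5 (edgeR adjusted p = 0.0437), the smallest of any omission. Without hepatectomised replicate 1 Plin4 gave 4.65 (edgeR adjusted p = 0.00206). In males alone, 3 controls against 2 hepatectomised livers, they were 2.04 for Plin4 (edgeR adjusted p = 0.135) and 1.55 for Plin5 (edgeR adjusted p = 0.0147). With the replicate number as a block, Plin4 gave 3.13 (edgeR adjusted p = 0.112) and Plin5 gave 1.98 (edgeR adjusted p = 0.0627), so that 0 of 9 members were called. Without control replicate 6 and hepatectomised replicate 2 together, Plin4 gave 4.44 (edgeR adjusted p = 0.0288) and Plin5 gave 2.56 (edgeR adjusted p = 0.0189). Scaling to library size alone, which moved the median of all genes to -0.24, left Plin4 at 3.76 (edgeR adjusted p = 0.00857) and kept the call of Plin5 (edgeR adjusted p = 0.00799).

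**Figure D3:**
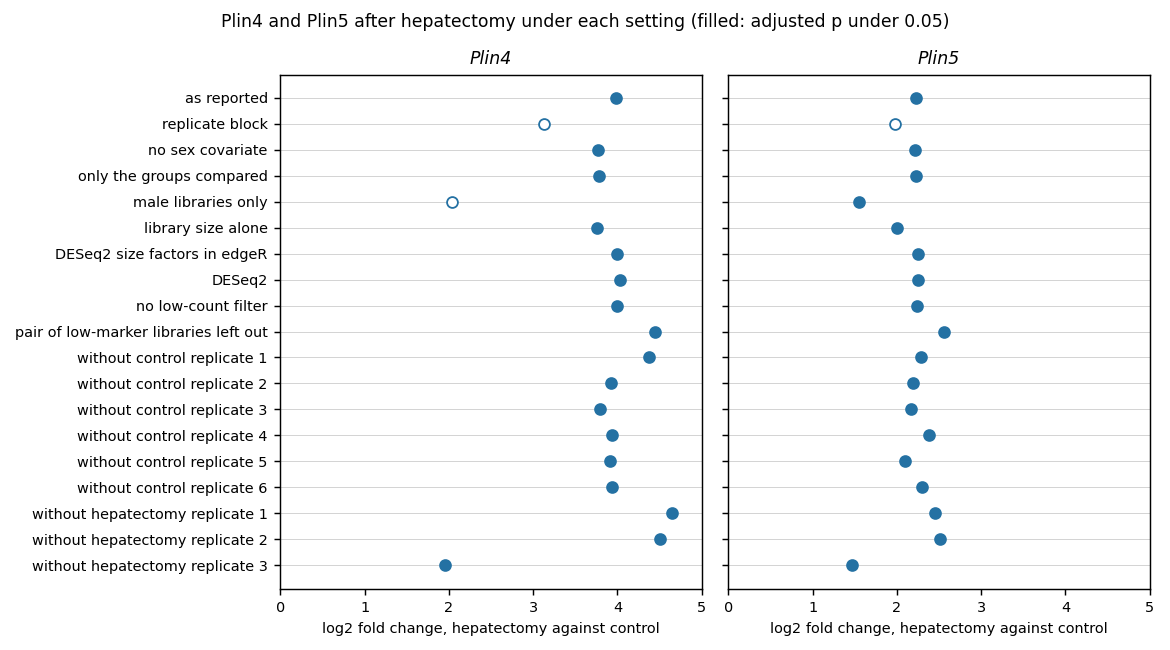
Log2 fold change of Plin4 and Plin5 in hepatectomised against control livers under each setting of the analysis, with filled points for an adjusted p under 0.05. All points lie to the right of 1; the lowest are those without hepatectomised replicate 3, at 1.95 and 1.47, and the points with the replicate block are open.

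Plin2, also called adipophilin, is the coat protein of most liver droplets and is stabilised by the fat it covers. It measured 205 to 438 CPM in controls with a median of 228. Depleted replicates 1 to 4 measured 124, 106, 201 and 221 CPM, and hepatectomised replicates 1 to 3 measured 271, 606 and 384 CPM. The depleted livers overlapped the controls at their upper end and the hepatectomised livers overlapped them at their lower end, but the lowest hepatectomised liver was above the highest depleted one. Neither comparison with control passed the test, with log2 fold changes of -0.67 ± 0.30 (SE; edgeR adjusted p = 0.101) in depleted livers and 0.59 ± 0.31 (SE; edgeR adjusted p = 0.267) after hepatectomy. Without depleted replicate 4, the liver with the most stellate signal left, the fall in depleted livers was -0.89 (edgeR adjusted p = 0.0412).

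The depleted and the hepatectomised livers differed in Plin2, Plin4 and Plin5, but not detectably in Plin3, the ubiquitous perilipin (-0.21, log2; edgeR adjusted p = 0.374). Depleted against hepatectomised livers, the log2 fold change was -1.26 ± 0.35 (SE) for Plin2, -3.26 ± 0.79 (SE) for Plin4 and -2.10 ± 0.43 (SE) for Plin5, with edgeR adjusted p of 0.0214, 0.0108 and 0.00468. None of the 3 ranges overlapped, and 15.9% of all genes were lower in this way. Without hepatectomised replicate 3 they were -1.23, -1.08 and -1.27 (edgeR adjusted p = 0.0824, 0.226 and 0.0664), and 0 of 9 members were called. The Plin4 difference was larger without hepatectomised replicate 1 (-3.86) or depleted replicate 3 (-3.87). The Plin2 difference also missed the threshold without depleted replicate 1 (-1.18; edgeR adjusted p = 0.0531), without depleted replicate 3 (-1.33; edgeR adjusted p = 0.0647) and without hepatectomised replicate 2 (-0.99; edgeR adjusted p = 0.0763). It was lost as well with only the groups compared in the fit (-1.27; edgeR adjusted p = 0.0577) and with library size alone (-0.93; edgeR adjusted p = 0.0888), each leaving 2 members called. Without control replicate 6 and hepatectomised replicate 2 together the 3 perilipins passed, and Cideb joined them at -0.48 (edgeR adjusted p = 0.0442). Without depleted replicate 4, 6 members were called lower, the added ones being Cideb, Cidec and Fitm1, and without hepatectomised replicate 1 Cidec was added (-2.11; edgeR adjusted p = 0.0243).

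Summed per length, the 3 perilipins together gave 66 to 136 RPKM in controls, 109 to 201 RPKM after hepatectomy and 40.7 to 72.6 RPKM in depleted livers. Plin2 made up most of this sum in every liver, from 61.6% in hepatectomised replicate 3 to 92.9% in control replicate 5. The share of Plin5 was 6.91% to 13.7% in controls, 7.76% to 27.5% in depleted livers, and 28.5%, 13.2% and 34.8% in hepatectomised replicates 1, 2 and 3. Plin4 stayed a small part, at 0.137% to 0.749% in controls and 0.732% to 3.64% after hepatectomy. The share of Plin5 in hepatectomised replicate 2, where Plin2 was highest, lay within the control range, as did that of Plin4 in replicate 1. Thus the shares of Plin4 and Plin5 overlapped between hepatectomised livers and controls, whereas their levels did not.

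**Figure D4:**
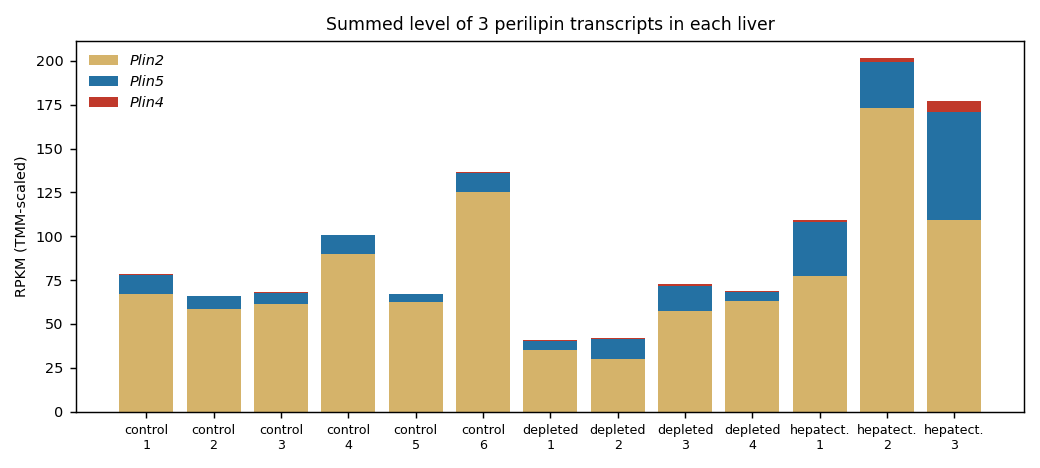
Summed level of Plin2, Plin5 and Plin4 in each liver, in RPKM on a linear axis from 0, with stacked bars for the 3 genes. The 6 control bars reach 66 to 136, the 4 depleted bars 40.7 to 72.6 and the 3 hepatectomised bars 109 to 201, and Plin2 is the largest part of each bar.

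Of the CIDE proteins, Cideb, the hepatocyte member that also loads lipid onto nascent VLDL, was lower in depleted livers. It measured 167 to 301 CPM in controls with a median of 210, and 134, 149, 157 and 162 CPM in depleted replicates 1 to 4. All 4 depleted livers were below all 6 controls, a separation in this direction that 11.9% of all genes showed. The fall on the log2 scale was -0.46 ± 0.13 (SE; adjusted p = 0.0191 by edgeR). Hepatectomised replicates 1 to 3 measured 238, 246 and 195 CPM, inside the control range, and differed from controls by 0.01 ± 0.14 (SE, log2; edgeR adjusted p = 0.981). Against the hepatectomised livers the depleted ones were also all lower, by -0.47 ± 0.16 (SE, log2), which did not pass (edgeR adjusted p = 0.0536), though it did with no sex covariate (-0.59; edgeR adjusted p = 0.0256). The difference between depleted and control livers did not pass without depleted replicate 1 (-0.42; edgeR adjusted p = 0.0548), without depleted replicate 3 (-0.38; edgeR adjusted p = 0.119), in females alone (-0.37; edgeR adjusted p = 0.161) or with library size alone (-0.35; edgeR adjusted p = 0.0729). Cideb (ENSMUSG00000022219.9, chromosome 14, 55754050 to 55758458) shares 1141 exon bases, 76.423% of its exons, with Nop9 on the opposite strand. The libraries were stranded but the strand setting of the counting is not given in the sources used here, so reads of the pair may not be told apart. Nop9, a ribosome biogenesis factor, measured 19.1 ± 3.41 CPM (SD, n = 6) in controls and 16.2 ± 4.1 CPM (SD, n = 4) in depleted livers.

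Cidec, which enlarges droplets in fat and in steatotic liver and is known as Fsp27, was low throughout. It measured 0.425 to 1.3 CPM in controls with a median of 0.793, and 0.386, 0.47, 0.926 and 1.83 CPM in depleted replicates 1 to 4. Hepatectomised replicates 2 and 3 measured 3.28 and 4.49 CPM, above every other liver, while replicate 1 at 0.353 CPM was the lowest of all 13. The log2 fold change after hepatectomy was 1.73 ± 0.63 (SE) and did not pass (edgeR adjusted p = 0.114). It passed without hepatectomised replicate 1 at 2.26 (edgeR adjusted p = 0.0256). It did not pass without replicate 2 (1.38; edgeR adjusted p = 0.391), without replicate 3 (1.15; edgeR adjusted p = 0.434) or in males alone (1.13; edgeR adjusted p = 0.506). In depleted livers it was 0.08 ± 0.62 (SE; edgeR adjusted p = 0.933).

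Cidea, the family member of brown fat and of very fatty liver, had 0 to 5 reads in each library and 0 in 6 of the 13. Its highest level, 0.118 CPM, was in hepatectomised replicate 1. The smallest level that 3 reads can show was 0.0524 to 0.09 CPM in these libraries, a floor that covers counting error only. No difference between groups was tested for Cidea, whose levels were too near this floor. Markers of brown adipocytes summed to 0.992 to 108 CPM in controls, 0.0643 to 1.15 CPM in depleted livers and 2.44 to 73.5 CPM after hepatectomy. Nearly all of the higher sums were Elovl3, a fatty acid elongase also expressed in liver, while Ucp1, the defining marker, had at most 3 reads in any library.

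The lipase pair showed no difference that passed the test. Pnpla2 encodes adipose triglyceride lipase, which takes the first fatty acid off stored triglyceride, and measured 70.5 to 95 CPM in controls with a median of 86.4. Depleted replicates 1 to 4 measured 95.5, 102, 118 and 88.1 CPM, so that 3 of 4 were above every control. Hepatectomised replicates 1 to 3 measured 77.8, 121 and 163 CPM, of which replicates 2 and 3 were above every control. The log2 fold change was 0.29 ± 0.18 (SE; edgeR adjusted p = 0.249) in depleted livers and 0.53 ± 0.19 (SE; edgeR adjusted p = 0.115) after hepatectomy. The value after hepatectomy moved with single livers, from 0.78 without hepatectomised replicate 1 (edgeR adjusted p = 0.013) to 0.11 without replicate 3 (edgeR adjusted p = 0.747), and was 0.10 in males alone (edgeR adjusted p = 0.854). That in depleted livers was 0.35 when only those groups were fitted (edgeR adjusted p = 0.0163).

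G0s2 encodes a small protein that binds this lipase and blocks it. It varied more than Pnpla2 within each group. Controls measured 12.3 to 75.5 CPM with a median of 22.9, depleted replicates 1 to 4 measured 5.85, 20, 12 and 37.3 CPM, and hepatectomised replicates 1 to 3 measured 11.5, 102 and 15 CPM. The 2 highest values, 102 and 75.5 CPM, were in hepatectomised replicate 2 and control replicate 6, the libraries with the least Kupffer and endothelial signal. The part of that signal in the result was not tested. The log2 fold change was -0.18 ± 0.72 (SE; edgeR adjusted p = 0.871) in depleted livers and 0.28 ± 0.72 (SE; edgeR adjusted p = 0.859) after hepatectomy, where it turned to -0.70 without these 2 libraries. The ratio of Pnpla2 to G0s2, per length, was 0.35 to 1.95 in controls, 0.343 to 3.12 after hepatectomy and 0.681 to 4.71 in depleted livers, and the 3 ranges overlapped.

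Fitm1, which encodes an endoplasmic reticulum protein that binds triglyceride and diacylglycerol and is known mainly from muscle, helps new droplets form. It measured 2.57 to 16.8 CPM in controls with a median of 6, and 0.985, 1.14, 2.25 and 4.99 CPM in depleted replicates 1 to 4. Depleted replicates 1 to 3 were below every control, while replicate 4, with the most stellate signal left, lay among them. Depleted livers differed from controls by -1.17 ± 0.56 (SE, log2; edgeR adjusted p = 0.131), and by -2.04 without replicate 4 (edgeR adjusted p = 0.00266). Without depleted replicate 3 the difference was -0.78 (edgeR adjusted p = 0.414), and in females alone it was -0.76 (edgeR adjusted p = 0.454). Hepatectomised replicates 1 to 3 measured 3.35, 9.74 and 2.72 CPM, inside the control range, and differed from controls by -0.60 ± 0.57 (SE, log2; edgeR adjusted p = 0.56). Summed markers of skeletal muscle were 7.55 CPM in hepatectomised replicate 1 and 0.399 to 1.83 CPM in the other 12 libraries. The part of muscle RNA in the Fitm1 levels was not tested.

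Cd36, the scavenger receptor that takes up long-chain fatty acids and is carried by macrophages and endothelium as well as by hepatocytes, had the highest log2 fold change of any member in depleted livers. It measured 3.39 to 52.6 CPM in controls with a median of 38.7, and 108, 124, 77.5 and 44.5 CPM in depleted replicates 1 to 4. Depleted replicates 1 to 3 were above every control, replicate 4 lay within their range, and control replicate 6 at 3.39 CPM was far below the other 5, which did not fall under 22.4 CPM. Its difference from controls, 1.39 ± 0.52 (SE, log2), missed the threshold (edgeR adjusted p = 0.0572). It passed at 1.19 without control replicate 6 (edgeR adjusted p = 0.0143), at 1.62 without depleted replicate 4 (edgeR adjusted p = 0.0351), at 1.44 without the sex covariate (edgeR adjusted p = 0.0466) and at 1.40 by DESeq2 (adjusted p = 0.0178). It did not pass without depleted replicate 1, 2 or 3 (1.33, 1.24 and 1.30; edgeR adjusted p = 0.11, 0.127 and 0.186) or in females alone (1.10; edgeR adjusted p = 0.0791). Hepatectomised replicates 1 to 3 measured 47.4, 27.8 and 23.8 CPM, inside the control range, and the log2 fold change was 0.21 ± 0.60 (SE; edgeR adjusted p = 0.873).

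Several marker lists, but not clearly the endothelial one, moved in the same livers as Cd36. In depleted livers 4 of 7 Kupffer markers, 7 of 7 monocyte and neutrophil markers and 1 of 7 endothelial markers were called higher, and 9 of 10 stellate markers were called lower. These are 57.1%, 100%, 14.3% and 90% of the lists in that order, against 33.9% of all genes called. Of the endothelial markers 4 had a log2 fold change above 0 and 3 below 0. The 3 other Kupffer markers did not pass, among them Clec4f and Vsig4, whose fitted levels were 7.99-fold and 1.84-fold lower (edgeR adjusted p = 0.0872 and 0.287). None of the defining genes of these lists was at 0 in all libraries of a group. Depleted replicate 4, with the lowest Cd36 of its group, had the highest Kupffer sum (1710 CPM) and the lowest endothelial sum (190 CPM) of the 4. Control replicate 6, with the lowest Cd36 of all, had the lowest sum of both. The part of these cells in the Cd36 levels was not tested.

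In DESeq2, 2 of 9 members differed between depleted and control livers (Cideb and Cd36), 2 between hepatectomised and control livers (Plin4 and Plin5) and 4 between depleted and hepatectomised livers (Cideb with the 3 perilipins). At an unadjusted p under 0.05, edgeR gave 3, 4 and 5 members in the same order, against 43.6%, 24.3% and 36.1% of all genes. In depleted livers the count of 1 member fell to 0 without depleted replicate 1 or replicate 3, rose to 2 without control replicate 6, and rose to 4 without depleted replicate 4, where Plin2 and Fitm1 were lower and Cd36 higher beside Cideb. After hepatectomy it rose from 2 to 4 without hepatectomised replicate 1, where Cidec and Pnpla2 passed.

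Sex was compared within the 6 controls. Fitm1 averaged 10.6 CPM in 3 males and 4.01 CPM in 3 females, and the male values (7.07 to 16.8 CPM) lay above the female values (2.57 to 4.94 CPM). The male values also lay above the female values for Plin4, Cideb, G0s2 and Pnpla2. The share of all genes that separate in this way was not computed. The log2 difference of males from females was 1.40 ± 0.39 (SE) for Fitm1 and 1.31 ± 0.47 (SE) for G0s2. Without control replicate 6, the male that stood apart and had the highest Fitm1 and G0s2 of the controls, these differences were 0.91 and 0.65 (edgeR adjusted p = 0.365 and 0.509). By edgeR's quasi-likelihood test 0 of 9 members were called, with 3 at an unadjusted p under 0.05 (Fitm1, G0s2 and Pnpla2), against 0.738% and 13.2% of 13005 genes. DESeq2 called 2, Fitm1 and G0s2. Whether depletion acted differently in the sexes could be asked only through 1 depleted male. The edgeR interaction term called 0 of 9 members, with 0 at an unadjusted p under 0.05, against 0.0217% and 3.47% of all genes, and DESeq2 was not run for it.

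The other genes of droplet metabolism were taken as a list of 62, of which 60 were tested. In depleted livers 27 of them were called, 6 higher and 21 lower, which is 45% against 33.9% of all genes. Their median log2 fold change was -0.25, beside -0.03 for all genes. Among the called genes, the largest rises were those of Mogat2, Fabp4, Soat1, Lpin1 and Lpl, and the largest falls those of Fabp1, Vldlr, Ces1d, Acsl1 and Ppara. After hepatectomy 5 were called, 4 higher and 1 lower, which is 8.33% against 8.42%. Their median there was 0.04. With library size alone 3 were called higher and 5 lower, beside 626 higher and 1566 lower of all genes. Between the depleted and the hepatectomised livers 19 were called, 2 higher and 17 lower, which is 31.7% against 23.4% of all genes. With library size alone the split was 10 higher and 6 lower, beside 3102 higher and 610 lower of all genes. That scaling moved the median of all genes to 0.27 in this comparison.

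In lipolysis, 1 of 10 genes was higher in depleted livers and 4 were lower, or 50% against 33.9% of all genes. Hilpda, a small inhibitor of adipose triglyceride lipase, rose by 1.28 ± 0.26 (SE, log2) in depleted livers and by 1.33 ± 0.28 (SE, log2) after hepatectomy (edgeR adjusted p = 0.0022 and 0.0126). Its mean went from 1.16 CPM in controls to 2.65 and 3.04 CPM. Ces1d, a carboxylesterase that mobilises triglyceride for VLDL, changed by -2.11 ± 0.35 (SE, log2) in depleted livers, from 818 to 226 CPM. Mgll, which cleaves the last fatty acid from glycerol, changed by -0.92 ± 0.15 (SE, log2; edgeR adjusted p = 0.000426). Abhd5, the coactivator of adipose triglyceride lipase, gave -0.23 and 0.01 in the comparisons with control, and Lipe, the hormone-sensitive lipase, gave 0.50 and -0.16. None of these 4 values passed, but Lipe in depleted livers passed in females alone (0.56; edgeR adjusted p = 0.0243), with library size alone (0.60; 0.0449), with only the groups compared (0.45; 0.0183) and without control replicate 6 and hepatectomised replicate 2 (0.47; 0.0143). Its depleted livers, at 22.5 to 25.9 CPM, were above the controls, at 15.4 to 21.7 CPM. Plin3 gave -0.34 and -0.13 and did not pass in either, though in depleted livers it passed with no sex covariate (-0.35; edgeR adjusted p = 0.0475) and without depleted replicate 4 (-0.40; 0.0392).

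In droplet formation 0 of 12 genes were higher and 5 were lower in depleted livers, or 41.7% against 33.9%, and 0 were called after hepatectomy. Fitm2, the widely expressed partner of Fitm1, changed by -0.75 ± 0.22 (SE, log2; edgeR adjusted p = 0.021), from 50.6 to 30.2 CPM. That call was lost without control replicate 4 (-0.65; edgeR adjusted p = 0.0562), without depleted replicate 1 (-0.70; edgeR adjusted p = 0.056) and without depleted replicate 3 (-0.66; edgeR adjusted p = 0.105). In the synthesis of triglyceride and sterol ester 3 of 17 were higher and 5 were lower, or 47.1% against 33.9%. Mogat2, a monoacylglycerol acyltransferase, rose by 2.47 ± 0.62 (SE, log2), from 0.268 to 1.48 CPM, and by 3.12 without control replicate 4. Soat1, the sterol acyltransferase of macrophages and many other cells, rose by 2.11 ± 0.40 (SE, log2), from 5.23 to 23.4 CPM. Acsl1, the main long-chain acyl-CoA synthetase of liver, changed by -1.48 ± 0.16 (SE, log2), from 868 to 308 CPM. Lpin1, a phosphatidate phosphatase, rose in both comparisons, by 1.63 ± 0.52 (SE, log2; edgeR adjusted p = 0.0295) in depleted livers and by 2.25 ± 0.56 (SE, log2; edgeR adjusted p = 0.0288) after hepatectomy.

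In uptake and binding, 2 of 10 genes were higher and 4 were lower in depleted livers, or 60% against 33.9%. Fabp1, the abundant fatty acid binding protein of hepatocytes, changed by -3.15 ± 0.81 (SE, log2; edgeR adjusted p = 0.00984), and by -4.51 without depleted replicate 4 (edgeR adjusted p = 0.000101). Fabp4, the binding protein of adipocytes, macrophages and capillary endothelium, rose from 6.29 to 31.8 CPM, by 2.34 ± 0.21 (SE, log2; edgeR adjusted p = 7.92e-06). Lpl, lipoprotein lipase, rose by 1.63 ± 0.26 (SE, log2; edgeR adjusted p = 0.000413). Vldlr, the VLDL receptor, changed by -2.11 ± 0.53 (SE, log2; edgeR adjusted p = 0.00808), and by -1.48 without the sex covariate (edgeR adjusted p = 0.448). It was the 1 gene of the list that differed between the sexes in controls, at -4.30 ± 0.53 (SE, log2) in males against females (edgeR adjusted p = 0.0167). After hepatectomy Fabp5 and Fabp4 rose, by 1.66 ± 0.40 and 0.94 ± 0.22 (SE, log2; edgeR adjusted p = 0.0254 and 0.0215). A list of 6 markers of lipid-associated macrophages, which itself holds Lpl and Fabp5, summed to 104 to 179 CPM in controls, 154 to 329 CPM in depleted livers and 201 to 275 CPM after hepatectomy. In each comparison with control 2 of the 6, or 33.3%, were called, both higher. Of all genes 33.9% were called in depleted livers and 8.42% after hepatectomy. The 2 were Cd9 and Lpl in depleted livers and Cd9 and Fabp5 after hepatectomy, while Trem2, Gpnmb and Spp1 passed in neither. The part of these cells in the levels of Fabp4, Fabp5 and Lpl was not tested.

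Of the regulators, 0 of 10 were higher and 3 were lower in depleted livers, a share of 30% that is near the 33.9% of all genes. Ppara, the nuclear receptor that drives fatty acid oxidation and has Plin2 and Plin5 among its targets, changed by -1.45 ± 0.29 (SE, log2; edgeR adjusted p = 0.0019), from 130 to 49.5 CPM. After hepatectomy it gave -0.70 and did not pass (edgeR adjusted p = 0.186). Pparg, the adipogenic receptor that drives Cidec and Plin4 in fat, gave 0.35 and -0.43 in the comparisons with control and passed in neither. Srebf1, a driver of fatty acid synthesis, changed by -0.98 ± 0.26 (SE, log2; edgeR adjusted p = 0.0378) after hepatectomy and by -0.85 ± 0.25 (SE, log2; edgeR adjusted p = 0.0171) in depleted livers.

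**Figure D5:**
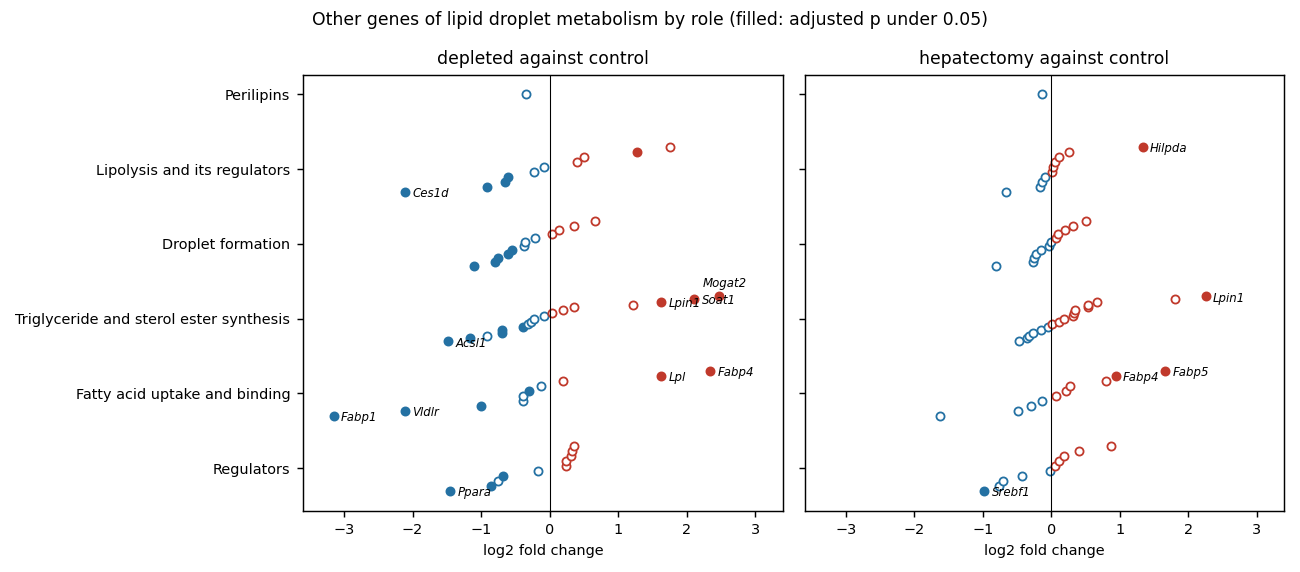
Log2 fold change of the tested genes of the wider list by role, in depleted and in hepatectomised against control livers, with filled points for an adjusted p under 0.05 and red and blue for above and below 0. In depleted livers 6 filled points are above and 21 below 0; after hepatectomy 4 are above and 1 is below.

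Most of the calls after hepatectomy were narrow. With the replicate block 1 of the 5 was left, since Lpin1 gave 1.64 (edgeR adjusted p = 0.115), Fabp5 1.78 (0.076), Fabp4 0.81 (0.121) and Srebf1 -0.89 (0.14). Lpin1 was lost without hepatectomised replicate 3 at 1.04 (edgeR adjusted p = 0.302) and without control replicate 2, 3, 5 or 6, and also with only the groups compared (2.19; edgeR adjusted p = 0.0545). Fabp5 was lost without control replicate 1, 3 or 5 or hepatectomised replicate 2 or 3, where it ranged down to 1.44 (edgeR adjusted p = 0.117). Fabp4 was lost without hepatectomised replicate 1 (0.68; edgeR adjusted p = 0.101) or 3 (0.89; edgeR adjusted p = 0.0831) and with library size alone (0.71; edgeR adjusted p = 0.0572), and Hilpda without replicate 2 (1.27; edgeR adjusted p = 0.0518). Srebf1 was lost on leaving out any library but control replicate 4, between -1.10 and -0.89. Without control replicate 6 and hepatectomised replicate 2 together, Hilpda gave 1.26, Fabp5 1.64 and Srebf1 -0.92, and none passed (edgeR adjusted p = 0.0694, 0.13 and 0.171). In males alone Hilpda gave 1.29, Fabp4 0.94 and Lpin1 1.15, and none passed (edgeR adjusted p = 0.131, 0.216 and 0.306). In depleted livers Lpin1 was lost without depleted replicate 3 at 1.05 (edgeR adjusted p = 0.287), and also without depleted replicate 2 or control replicate 2, 3, 4 or 6. In females alone, 3 livers against 3, the list had 14 calls, and Mogat2, Lpin1, Fabp1, Vldlr, Hilpda and Fitm2 were not among them (edgeR adjusted p from 0.0541 to 0.113).

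Members that varied together were described by Pearson's r of log2 CPM after group and sex were taken out, over the 13 libraries, which share depth and scaling. Of 36 pairs of members, 14 had r above 0.5 and 4 had r below -0.5. The closest pair was G0s2 with Fitm1 at 0.87, followed by Plin4 with Pnpla2 at 0.82 and Plin2 with Fitm1 at 0.79, and Plin4 with Plin5 reached 0.69. Plin2, G0s2 and Fitm1 were all highest in control replicate 6 and hepatectomised replicate 2, and the part of these libraries in their r was not tested. The 4 negative pairs all held Cd36, the lowest with Cideb at -0.73 and the others with Fitm1, Plin2 and G0s2. Control replicate 6, with the lowest Cd36 of all libraries, had the highest level of each of these partners among the controls. The part of that library in the negative r was not tested. The genes most like Plin2 by this measure, among 10550, were Ppm1m, Brix1 and Cltb, each at 0.955. Those most like Cidec were Rnmt at 0.934, Rnf40 at 0.932 and Abcf3 at 0.926. Those most like Cd36 were Pcdhgc3 at 0.960, Myo1c at 0.958 and Hgf, a growth factor and stellate marker, at 0.953. These values are descriptions and were not tested.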

How the data were processed

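Whole-liver mRNA of 13 libraries (6 control, 4 depleted, 3 hepatectomised) was sequenced from TruSeq stranded libraries, per the labels' protocols. The authors deposited a table of raw read counts per gene, made with STAR 2.7.1a, SAMtools 1.15.1 and featureCounts 1.6.4 on mm10, per the submitters' processing notes; the strand setting and the handling of multi-mapped reads are not given in the sources used here. Of 22048 gene IDs, 21818 matched GENCODE release M21 and 230 did not; of the matched, 99.94% had exons overlapping the same gene in GRCm38. Totals were 35360991 to 51008737 counts per library, and reads carried no molecular identifiers.

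Counts were tested with edgeR 4.0.16 (filterByExpr, TMM, estimateDisp, robust glmQLFit, glmQLFTest) in R 4.3.3, with limma 3.58.1 and DESeq2 1.42.0 loaded beside it, DESeq2 as an alternative. Terms were group and sex, fitted to the 13 libraries at once, or sex alone over the 6 controls; all tests were two-sided, with Benjamini-Hochberg adjustment and a threshold of 0.05. CPM and RPKM were computed here from the counts, TMM-scaled, with exon lengths from the deposited table; log2 CPM used a prior count of 2. Biological variation between livers had a common coefficient of 31.39%. The test was tried on simulated data first.

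The members and gene lists were chosen with earlier results of these data known. The text names all members; of the wider list, in each comparison with control, the 5 called genes with the largest change in each direction and those acting directly on a member; and for Plin2, Cidec and Cd36 the 3 most similar genes. Nop9 was named after its values were seen, as the gene that overlaps Cideb. Trarg1 (Tusc5) was among the white adipocyte markers but was not found in the table, and brown adipocyte, cholangiocyte and hepatocyte markers were also summed.

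Replicate numbers come from the labels. Deviations from the group mean correlated at r = 0.11 to 0.52 in the 3 same-numbered pairs of hepatectomised and control livers, so blocked values are given beside those results; these pairs also match in sex, and after sex was taken out r was -0.19 to 0.08. Alternatives changed the block, sex, the libraries, the scaling, the filter, the test and each replicate in turn. Leaving out control replicate 6 and hepatectomised replicate 2 together was chosen after seeing the data. The labels give no sequencing date or batch, so a batch that followed the groups cannot be told apart from them.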

Additional observations from a re-analysis of the deposited data

Results flagged for a closer look

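In groups of 4 to 10 livers, a single liver was marked where its gap to the nearest other, divided by the whole range of the group, passed Dixon's 95% critical value. The 10 members gave 20 such groups, of which chance marks about 1, and 4 were marked. Plin4 in control replicate 1 was 3.4 CPM, with a gap of 0.812 of the range; the next control was 1.08 CPM. Plin4 in depleted replicate 3, the male of that group, was 4.26 CPM, with a gap of 0.874 of the range. G0s2 in control replicate 6 was 75.5 CPM, with a gap of 0.695 of the range. Cidea in control replicate 4 was 0.112 CPM, with a gap of 0.792 of the range, which is 5 reads.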

How the results depend on the processing

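Plin4 and Plin5 kept their direction after hepatectomy under all 18 alternatives run, and Cideb kept its fall in depleted livers under all 19. Of the 9 tested members, the depleted livers had 2 called with no sex covariate, with only the groups compared, by DESeq2 or without control replicate 6 and hepatectomised replicate 2 together, and 0 in females alone or with library size alone. After hepatectomy 0 were called with the replicate block and 1 in males alone, and among male and female controls 2 by DESeq2. Leaving out 1 library at a time gave 0 to 4 members in depleted livers, 2 to 4 after hepatectomy, 0 to 6 between depleted and hepatectomised livers and 0 in controls by sex.

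Of the wider list, 14 genes were called in depleted livers in females alone; 1 after hepatectomy with the replicate block, 3 in males alone, 8 with library size alone and 9 by DESeq2; 11 between depleted and hepatectomised livers with only the groups compared; and, by sex, 5 by DESeq2 and 2 with no low-count filter. Leaving out 1 library gave 19 to 28, 1 to 7, 12 to 21 and 0 to 2 in the same order of comparisons. Over all genes, 2695 were called in depleted livers in females alone (4692 in both sexes). After hepatectomy 632 were called with the replicate block, 613 in males alone, 2192 with library size alone, 1939 by DESeq2 and 412 without control replicate 6 and hepatectomised replicate 2, against 1164. Between depleted and hepatectomised livers 2105 were called with only the groups compared, against 3236, and by sex 445 by DESeq2, against 96. Leaving out 1 library gave 2960 to 4817 in depleted livers, 483 to 1331 after hepatectomy, 1709 to 3850 between depleted and hepatectomised livers, 32 to 200 by sex and 0 to 4 for the sex interaction, against 3. The cause of these changes was not tested, though several settings hold fewer libraries.

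Log2 values that changed sign belonged to genes that did not pass the test in that comparison. With the replicate block, Plin5 and Cidec gave -0.06 and -0.06 in depleted livers, and Cd36 gave -0.26 and Abhd5 -0.07 after hepatectomy. With library size alone, Cideb gave -0.20, Cd36 -0.03, Abhd5 -0.21, Mgll -0.16 and Fitm2 -0.01 after hepatectomy, Pnpla2 gave 0.09 in depleted against hepatectomised livers and Cidec -0.05 by sex, where all libraries with group gave -0.29. G0s2 gave 0.26 in depleted livers in females alone. In males alone, Cideb gave -0.02, Lipe 0.02 and Mgll -0.08 after hepatectomy, and with only the groups compared Abhd5 gave -0.02. Without control replicate 6 and hepatectomised replicate 2, G0s2 gave -0.70, Cd36 -0.06, Mgll -0.01 and Fitm2 -0.16 after hepatectomy, and G0s2 0.51 in depleted against hepatectomised livers. Leaving out 1 library gave ranges across 0 in depleted livers for Cidec (-0.43 to 0.33), G0s2 (-0.84 to 0.35), Plin4 (-0.12 to 1.2) and Plin5 (-0.27 to 0.3). After hepatectomy it did so for Abhd5 (-0.17 to 0.23), Cd36 (-0.22 to 0.67), Cideb (-0.03 to 0.11), Fitm2 (-0.19 to 0.48), G0s2 (-1.06 to 0.75), Lipe (-0.59 to 0.09) and Mgll (-0.08 to 0.22). It did so for G0s2 (-1.09 to 0.63) and Pnpla2 (-0.47 to 0.23) between depleted and hepatectomised livers, and for Cidec (-0.26 to 0.6) and Plin2 (-0.18 to 0.43) by sex.

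The replicate number was also tried as a block where the numbers did not pair the samples, with same-numbered r of -0.34 to 0.07 for depleted and control livers and -0.35 to -0.00 for depleted and hepatectomised livers. There it called 1 member (Cideb at -0.44, edgeR adjusted p = 0.0409) and 3 members, with Plin4 at -2.81 not passing (edgeR adjusted p = 0.0622) and Cideb at -0.54 passing (edgeR adjusted p = 0.036); the list had 23 and 19 calls and all genes 3887 and 3170. No paired analysis was possible because each control has its own number for the male against female controls, and none was run for the sex interaction. The interaction could not be fitted without depleted replicate 3, the only male of its group. Depth limits Cidea in every library and, among the tested members, Plin4 in controls and Cidec in livers of all 3 groups. Cidec had 18 and 21 reads in depleted replicates 1 and 2 and 12 in hepatectomised replicate 1.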

Other observations

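The bile duct markers Krt19, Krt7, Epcam and Sox9 summed to 12.3 to 18 CPM in the 3 hepatectomised livers, against 4.54 to 6.34 CPM in the controls. Krt19 and Krt7, 2 of the 4, were called higher by edgeR's quasi-likelihood test, as were 6.06% of all genes. Epcam and Sox9 were not called there (edgeR adjusted p = 0.626 and 0.0766), and Sox9 was 9.66 of the 15 CPM in hepatectomised replicate 2. In depleted livers the sum was 4.8 to 15.7 CPM, with the highest value in replicate 3, the liver that also had the highest Plin4 and Plin5 of that group. Of those 15.7 CPM, 13.1 were Sox9, which was called higher in depleted livers (1.27, log2; edgeR adjusted p = 0.0336), while Krt19, Krt7 and Epcam were not called. The ranges of Sox9 overlapped, with 2.12, 3.61 and 2.05 CPM in depleted replicates 1, 2 and 4 and 1.65 to 2.81 CPM in controls. The share of counts taken by Alb, the albumin gene, was 3.74% in control replicate 6 and 6.06% to 14.2% in the other 12 libraries.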
